A study of Homo sapiens with 12 samples.

Results

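The genes described here are the MYC, MAX and MXD network, taken by symbol from the gene counts of 2 human prostate cancer lines: MYC, MYCL, MAX, MXD1, MXD3, MXD4, MXI1, MNT, MGA and MLX. All 10 were found among the 58037 gene identifiers, and all 10 had at least 10 counts in at least 3 samples of each line and were tested. The lines were DU-145, and LNCaP-AI, which was selected from C4-2B cells, a derivative of LNCaP, for growth without androgen. Both stably carried tet-MUC1shRNA, a doxycycline (DOX)-inducible hairpin against MUC1 in a lentiviral vector, and each was treated for 7 days with vehicle or with DOX at 500 ng/ml. There were 3 samples in each of the 4 groups. GEO's labels give phenol red-free RPMI1640 with charcoal-stripped serum for both lines, whereas the study's methods give it for LNCaP-AI cells and RPMI1640 with heat-inactivated serum for DU-145 cells, so the medium may have differed between the lines. DOX and vehicle are compared within a line. GEO's labels call the groups shCTL and shMUC1, whereas the study describes vehicle and DOX treatment of the same cells, and the latter names are used. DOX-treated cells with a control hairpin were not analysed here, so DOX itself and the hairpin cannot be told apart. The study asked how silencing MUC1-C, a protein it describes as acting with MYC, alters gene expression. By immunoblot it reported lower MYC protein after silencing in both lines, and lower MYCN protein in LNCaP-AI cells. Its discussion also states that silencing suppressed MYCN in DU-145 cells. The counts used here measure mRNA and not protein. The question here is how MYC mRNA and the mRNAs of its partners and antagonists differed between vehicle and DOX.

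MYC is a basic helix-loop-helix leucine zipper transcription factor that binds DNA as a heterodimer with MAX, at a CACGTG sequence known as the E-box, and activates genes for growth, metabolism and the cell cycle. The MXD proteins (MXD1, MXD3, MXD4 and MXI1) and MNT compete for MAX and recruit SIN3 corepressors to the same sites, and MGA binds MAX as part of a Polycomb-like repressor complex. MLX is a MAX-like partner that some MXD proteins, MNT and the glucose-sensing factors MLXIP and MLXIPL use. In prostate cancer, MYC gain is a common event. In GENCODE on GRCh38, MXD1 lies on chromosome 2 from 69897688 to 69942945 (plus strand), MXD3 on chromosome 5 from 177301461 to 177312757 (minus), MXD4 on chromosome 4 from 2247432 to 2262109 (minus) and MAX on chromosome 14 from 65006174 to 65102695 (minus).

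Because these proteins share a DNA site, promoters were searched for CACGTG in the 300-base windows of RefSeq (GRCh38.p14), which run from 250 bases before each transcript start to 50 after it. CACGTG reads the same on both strands. Of the 10 genes, 9 matched the promoter table, and 3 of these (MXD4, MNT and MLX) held the E-box. It was present in 7.26% of all 35116 windows and in at least a window of 8.77% of 27305 genes. Among the known MYC-activated genes listed for this work, 32 of the 59 with a window held it (54.2%). The sequences below show the E-box in capitals with up to 20 bases on either side, read 5′ to 3′ on the gene's strand. They are from MXD4 (chr4:2262322-2262359, minus strand, 238 bases before the start) and MNT (chr17:2401228-2401273, minus strand, 193 bases before), both antagonists, and from ODC1 (chr2:10448016-10448061, minus strand, 29 bases before) and LDHA (chr11:18394358-18394403 and chr11:18394456-18394501, plus strand, 185 and 87 bases before), MYC target genes whose mRNAs moved in opposite directions with DOX in DU-145 cells. The ODC1 start used here lies inside the gene, which in GENCODE runs from 10439968 to 10448327 (minus strand). The window at its outer start (chr2:10448278-10448577) held 0 E-boxes, and a further E-box follows the inner start. A match describes the letters in the window and not binding.
MXD4: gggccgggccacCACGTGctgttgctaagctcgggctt
MNT: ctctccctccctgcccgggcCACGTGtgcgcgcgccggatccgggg
ODC1: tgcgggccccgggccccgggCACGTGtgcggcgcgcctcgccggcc
LDHA, distal: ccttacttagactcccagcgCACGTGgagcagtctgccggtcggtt
LDHA, proximal: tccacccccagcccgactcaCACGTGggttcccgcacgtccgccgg

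Libraries held 10423437 to 13544153 counts in DU-145 cells and 16569613 to 26961777 in LNCaP-AI cells. MUC1 had 74, 60 and 59 counts with vehicle and 3, 3 and 3 with DOX in DU-145 cells, and 36, 25 and 52 with vehicle and 8, 6 and 3 with DOX in LNCaP-AI cells, and the groups did not overlap in either line. Of the LNCaP lineage markers, KLK3, KLK2, FOLH1, HOXB13 and TRPM8 had 0 counts in all DU-145 samples, and the list was present in every LNCaP-AI sample. The leading axis of variation among LNCaP-AI libraries (82.5% of their variance) was not treatment, since vehicle 1, DOX 2 and DOX 3 fell on a side of it, opposite DOX 1, vehicle 2 and vehicle 3. Of 8 markers of DU-145 cells, 7 were higher in each of vehicle 2, vehicle 3 and DOX 1 than in any of the other LNCaP-AI samples. The summed level of that list was 1180 to 1392 CPM (counts relative to library size, scaled by edgeR's TMM factors) in vehicle 2, vehicle 3 and DOX 1, against 131 to 148 in the other 3, and 3017 to 3357 in DU-145 cells. CAV1, CD44 and KRT7 were each under 1 CPM on the side of vehicle 1, while vimentin (VIM) did not follow the division. LNCaP lineage markers summed to 2322 to 3829 CPM in vehicle 2, vehicle 3 and DOX 1 and to 3581 to 5161 CPM in the others. In this line 6 of the 9 markers were called higher with DOX, beside 7.22% of all genes tested. That count was 6 without vehicle 2 or vehicle 3, 7 without vehicle 1 or DOX 1 and 0 without DOX 2 or DOX 3. Values for LNCaP-AI cells are therefore given also within each side, and the part of the division in any result that is not given in that way was not tested.

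In vehicle-treated cells, MYC was the most abundant of the 10 mRNAs per length of exon in both lines. In DU-145 cells it was at 16.0 ± 0.648 FPKM (here TMM-scaled CPM per kilobase of exon, SD, n = 3), and its samples overlapped those of MLX at 15.8 ± 1.07. MAX followed at 11.1 ± 1.01, then MXD4 at 6.35 ± 0.522, MGA at 5.02 ± 0.310, MXI1 at 3.82 ± 0.287, MXD1 at 1.95 ± 0.0980, MNT at 1.69 ± 0.0548, MXD3 at 1.27 ± 0.129 and MYCL at 0.838 ± 0.0545, and each of these neighbours was apart in all samples. In LNCaP-AI cells the order was MYC at 46.6 ± 2.72 FPKM, MLX at 18.8 ± 1.46, MXI1 at 10.8 ± 1.33, MAX at 8.82 ± 0.653, MXD4 at 8.58 ± 2.33, MGA at 4.93 ± 0.254, MNT at 3.86 ± 0.767, MXD3 at 2.71 ± 0.194, MXD1 at 1.46 ± 0.243 and MYCL at 1.11 ± 0.103. Here MAX and MXD4, and MXD1 and MYCL, overlapped. With the longest transcript in place of all exons as the length, MNT and MXD3 ranked above MXD1 in DU-145 cells and MNT above MGA in LNCaP-AI cells, so ranks in the lower part depend on the length used.

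Between the vehicle groups, 8 of the 10 genes differed by edgeR's quasi-likelihood test at a Benjamini-Hochberg adjusted p under 0.05, beside 66.3% of all genes tested (37.6% higher and 28.7% lower in LNCaP-AI cells). This compares 2 lines and not kinds of cell. MYC was 2.91-fold higher in LNCaP-AI cells (log2 fold change 1.54, standard error 0.069, adjusted p = 2.48e-08). MXI1 (log2 1.49, adjusted p = 7.72e-07), MNT (1.19, adjusted p = 2.03e-05) and MXD3 (1.09, adjusted p = 0.000125) were also higher, so 3 antagonists were higher together with MYC. MXD1 (-0.42, adjusted p = 0.0113) and MAX (-0.33, adjusted p = 0.00516) were lower in LNCaP-AI cells, and their calls held in 3 and 4 of 5 other settings, with adjusted p up to 0.103 and 0.0937. MYCL (0.41, adjusted p = 0.0344) and MLX (0.26, adjusted p = 0.0137) were called higher, but their calls held in 1 and 2 of the 5, and the median gene was itself 0.144 higher on the log2 scale. MXD4 (0.43, adjusted p = 0.0608) and MGA (-0.03, adjusted p = 0.725) were not called. MGA was at 93.9 to 106 CPM in DU-145 cells and 94.3 to 104 CPM in LNCaP-AI cells.

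**Figure D1:**
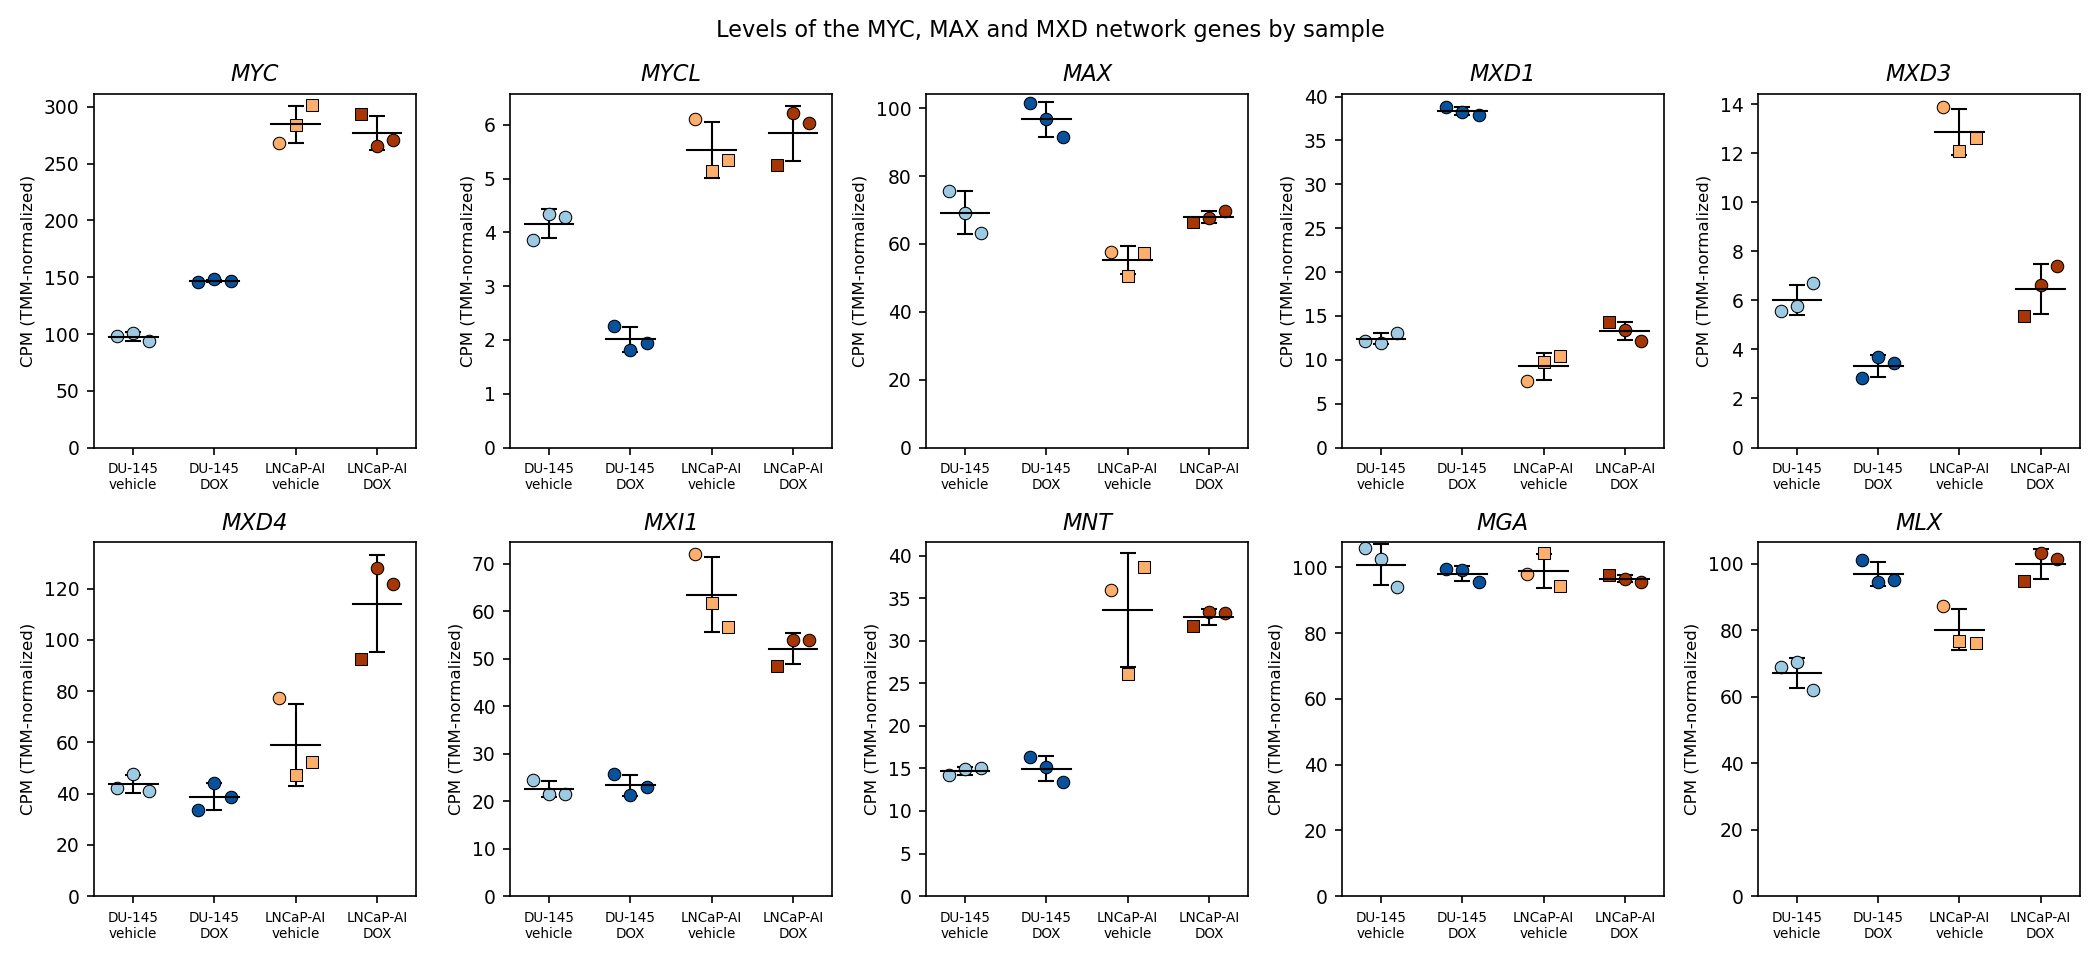
Level of each of the 10 genes in every sample, in CPM (counts relative to library size, TMM-scaled, linear axis from 0), by line and treatment. Points are samples, squares mark LNCaP-AI vehicle 2, vehicle 3 and DOX 1, bars are the mean and error bars 1 SD (n = 3). MYC lies at 146 to 148 CPM in DU-145 cells given DOX, above all 3 vehicle samples, while its LNCaP-AI groups overlap.

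In DU-145 cells, DOX was accompanied by more MYC mRNA and by more of its antagonist MXD1. MYC was at 98.5, 101 and 93.5 CPM in vehicle samples 1, 2 and 3 and at 146, 148 and 146 CPM with DOX. All 3 DOX samples were above all 3 vehicle samples, and MYC was 1.51-fold higher (log2 0.59, standard error 0.066, adjusted p = 4.54e-07). As RNA was taken from bulk cultures, fewer cells of a kind and less RNA per cell cannot be told apart, here or below. MXD1, a partner of MAX that is known to be induced as cells differentiate, was at 12.1, 11.9 and 13.1 CPM with vehicle and at 38.8, 38.3 and 38.0 with DOX. This 3.10-fold rise (log2 1.63, standard error 0.093, adjusted p = 6.46e-11) was the largest change among the 10 genes. MAX, the obligate partner, rose from 75.7, 69.0 and 63.1 CPM to 102, 96.9 and 91.5 (log2 0.49, standard error 0.076, adjusted p = 2.65e-05). MLX rose from 68.9, 70.5 and 62.0 CPM to 101, 94.6 and 95.1 (log2 0.54, standard error 0.072, adjusted p = 4.80e-06). The groups of MAX and MLX did not overlap.

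Lower with DOX in DU-145 cells were MYCL and MXD3. MYCL, a MYC paralogue, was at 3.85, 4.35 and 4.28 CPM with vehicle and at 2.27, 1.81 and 1.95 with DOX (log2 -1.04, standard error 0.219, adjusted p = 0.000544). These levels rest on 43 to 51 and 22 to 24 counts. MXD3, an antagonist described in proliferating cells, was at 5.57, 5.77 and 6.72 CPM with vehicle and at 2.83, 3.70 and 3.46 with DOX (log2 -0.84, standard error 0.186, adjusted p = 0.000939). In all, 4 of the 10 genes were called higher and 2 lower, beside 26.3% and 25.3% of all genes (51.5% in both directions), and the same 6 of 10 had groups that did not overlap, beside 57.4% of all genes. The share of the network that was called was thus close to that of all genes, and the calls held when each of the 6 samples was left out in turn.

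The remaining antagonists were not called in DU-145 cells, and their groups overlapped. MXD4 was at 42.1, 47.8 and 41.2 CPM with vehicle and 33.8, 44.2 and 38.6 with DOX, a log2 difference of -0.15 with a 95% interval of -0.35 to 0.043. MXI1, at 21.3 to 25.8 CPM over the 6 samples, differed by 0.05 (-0.16 to 0.26). MNT, at 13.4 to 16.3 CPM, differed by 0.03 (-0.21 to 0.27), and MGA, at 93.9 to 106 CPM, by -0.03 (-0.18 to 0.11). These intervals leave out the size of the rise in MXD1 and that of the fall in MXD3.

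In LNCaP-AI cells, MYC itself was not called, and MXD3 was the only one of the 10 that was. MYC was at 268, 284 and 301 CPM with vehicle and at 294, 265 and 271 with DOX. The groups overlapped, and the log2 difference was -0.07, with a 95% interval of -0.26 to 0.12 (adjusted p = 0.612) that lies below the rise measured in DU-145 cells. Within the samples on the side of vehicle 1 the MYC difference was -0.05, and within the other side it was -0.01. MYC was at 265 to 271 CPM on the side of vehicle 1 and at 284 to 301 CPM in vehicle 2, vehicle 3 and DOX 1, so its levels followed that division and not treatment. MYCL followed it in the opposite direction, at 6.03 to 6.23 CPM against 5.14 to 5.35, and differed by 0.05 between treatments (-0.34 to 0.43, adjusted p = 0.848).

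MXD3 was at 13.9, 12.1 and 12.6 CPM in LNCaP-AI vehicle samples and at 5.38, 6.63 and 7.39 with DOX. The DOX samples were again the lower ones (log2 -1.02, standard error 0.166, adjusted p = 0.0190), and the difference within the sides was -1.04 and -1.21. The call was lost without DOX 2 (adjusted p = 0.103) or DOX 3 (adjusted p = 0.0878), when the log2 fold change was -1.03 and -1.12. Of the exons of MXD3, 19.5% are shared with RAB24 on its strand and 24.2% with PRELID1 on the other strand. How the reads were counted in such places is not given in the sources used here, so its values are uncertain. Exons of MAX and MLX overlap FNTB (13.1%) and PSMC3IP (18.2%) on the other strand, and those of MXD1 overlap SNRNP27 (3.73%) on its own.

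Another 5 genes in LNCaP-AI cells had groups that did not overlap but missed the threshold. MXD4, a MAX partner linked with quiescent cells, was at 77.3, 47.5 and 52.2 CPM with vehicle and 92.5, 128 and 122 with DOX (log2 0.92, standard error 0.231, adjusted p = 0.0520). Its within-side differences were 0.64 and 0.88. MXD1 was at 7.54, 9.79 and 10.5 CPM with vehicle and 14.3, 13.4 and 12.2 with DOX (0.49, standard error 0.160, adjusted p = 0.0971, within sides 0.71 and 0.48). For both, DOX samples were the higher ones on each side. MXI1 was at 72.1, 61.9 and 56.7 CPM with vehicle and 48.4, 54.0 and 54.0 with DOX (-0.31, standard error 0.122, adjusted p = 0.143, within sides -0.47 and -0.31). MAX (0.27, adjusted p = 0.0993, within sides 0.20 and 0.29) and MLX (0.29, adjusted p = 0.0969, within sides 0.18 and 0.29) had DOX samples above all vehicle samples. MNT (-0.06, 95% interval -0.45 to 0.32) and MGA (-0.06, -0.24 to 0.12) had overlapping groups.

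The count of calls in LNCaP-AI cells depended on the fit. With the quasi-likelihood test, 1 of 10 genes was called, beside 12.7% of all genes (7.22% higher and 5.52% lower), and 6 of 10 had groups that did not overlap, beside 37.4% of all genes. DESeq2 called 4 of the 10 (MXD3, MXD4, MAX and MLX). With the side of the leading axis added to the fit, 6 were called, beside 18.8% of all genes called higher and 20.3% lower. These were MXD4 (0.76, adjusted p = 1.45e-07), MXD3 (-1.12, adjusted p = 1.98e-07), MXD1 (0.58, adjusted p = 0.000545), MXI1 (-0.39, adjusted p = 0.000749), MLX (0.24, adjusted p = 0.0234) and MAX (0.24, adjusted p = 0.0258). As the sides come from these very counts, the calls only compare fits. MYC was not called in that fit either (-0.03, adjusted p = 0.810).

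**Figure D2:**
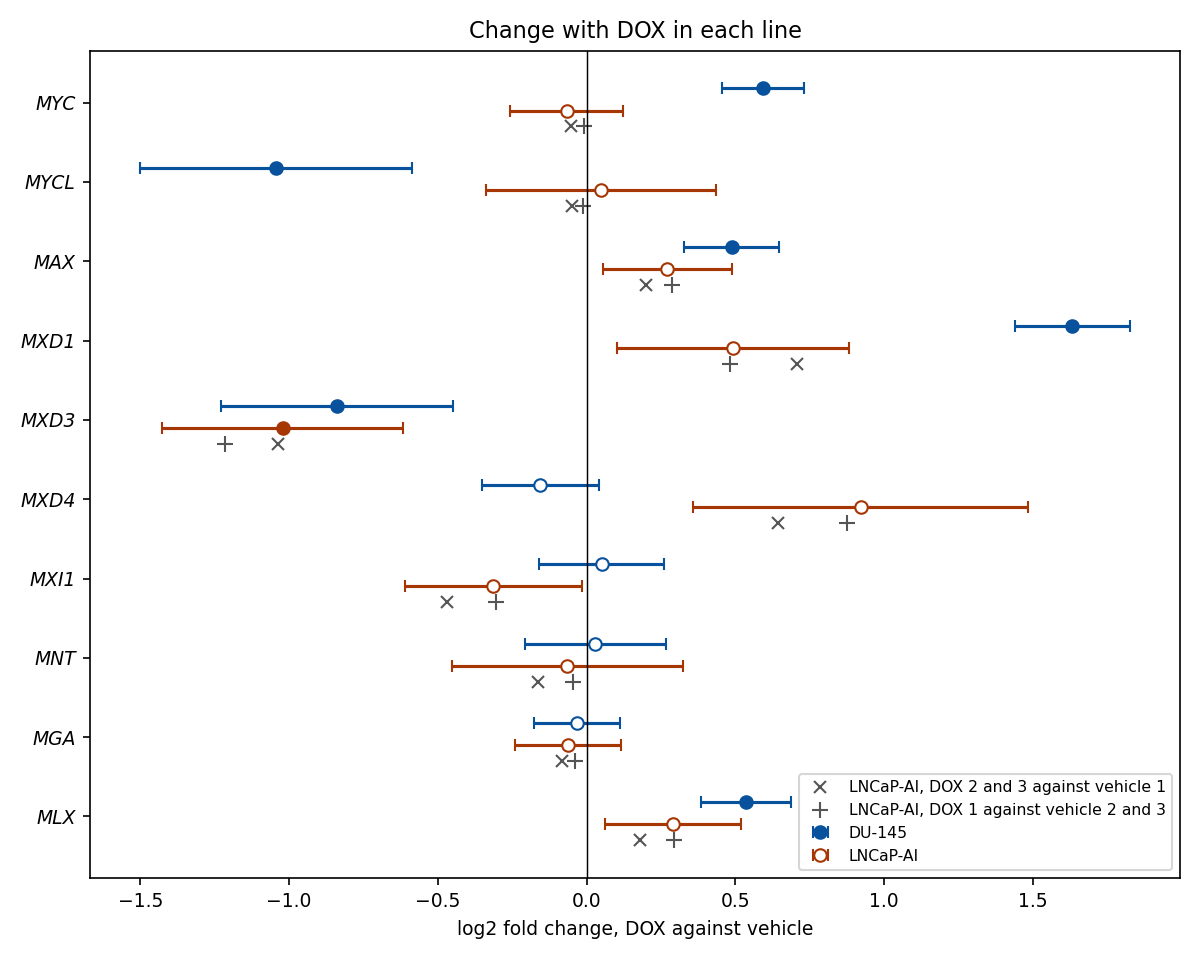
Log2 fold change of each gene with DOX against vehicle (x axis), with its 95% interval, in DU-145 (blue) and LNCaP-AI (brown) cells. Filled points passed an adjusted p under 0.05, and crosses give the LNCaP-AI difference within each side of the leading axis of variation, with no test. MYC stands at 0.59 in DU-145 and -0.07 in LNCaP-AI cells, and MXD3 is below 0 in both.

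The DOX effects in the lines were compared by an interaction over all 12 samples, in which 4 of the 10 genes were called (2 in each direction), beside 9.18% of all genes (5.43% with a higher and 3.76% with a lower fold change in LNCaP-AI cells). The MYC fold change was lower in LNCaP-AI cells by 0.63 on the log2 scale (difference -0.63, standard error 0.096, adjusted p = 0.00377), as was that of MXD1 (-1.11, standard error 0.172, adjusted p = 0.00403). For MYCL (1.13, standard error 0.221, adjusted p = 0.0120) and MXD4 (1.12, standard error 0.265, adjusted p = 0.0276) it was higher in LNCaP-AI cells. The calls for MYC, MXD1 and MYCL held in 12 of 12 fits that each left out a sample, and that for MXD4 in 3 of 12, with the adjusted p at most 0.0700. Of 5 other settings, they held in 4 for MYC, MXD1 and MXD4 and in 3 for MYCL. The adjusted p there was up to 0.0879 for MYC, 0.0908 for MXD1, 0.157 for MXD4 and 0.135 for MYCL. MXD3 changed in the same direction in both lines, with a difference of -0.14 (95% interval -0.65 to 0.37). MAX, MLX, MXI1, MNT and MGA were not called, and their differences ranged from -0.33 to 0.00478.

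To set MYC against its antagonists, its FPKM was divided by the summed FPKM of MXD1, MXD3, MXD4, MXI1, MNT and MGA in each sample. In DU-145 cells the ratio was 0.795, 0.808 and 0.784 with vehicle and 1.05, 1.03 and 1.07 with DOX. MYC mRNA thus went from below to above the sum of these 6, by 0.397 on the log2 scale. Without MGA in the sum, MYC was above it in all DU-145 samples, at a ratio of 1.03 to 1.08 with vehicle and 1.30 to 1.35 with DOX, so the crossing rests on counting MGA. The sum of all 6 was also larger with DOX (20.1 ± 0.517 FPKM with vehicle and 22.9 ± 0.528 with DOX, SD, n = 3). In LNCaP-AI cells the ratio was 1.20, 1.57 and 1.61 with vehicle and 1.44, 1.09 and 1.14 with DOX, with overlapping groups. The difference of mean log2 ratios was -0.256, or -0.391 without vehicle 1, and within the sides it was -0.108 and -0.147. The samples with the higher ratios were vehicle 2, vehicle 3 and DOX 1. The sum there was 32.3 ± 3.74 FPKM with vehicle and 37.5 ± 3.44 with DOX. No p is given for the ratio, and with 3 samples against 3 an exact permutation test could not pass the threshold.

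The composition of the antagonist sum differed by line. In DU-145 cells MXD1 made up 9.72% ± 0.745 of the sum with vehicle and 26.3% ± 0.617 with DOX, while MXD4 went from 31.6% ± 2.00 to 24.6% ± 2.90 (SD, n = 3). MXD1 was then the most abundant antagonist per length of exon, although its samples overlapped those of MXD4 and with the longest transcript as the length MXD4 was above it. In LNCaP-AI cells MXD4 made up 26.3% ± 3.95 with vehicle and 44.1% ± 3.52 with DOX, MXI1 went from 33.3% ± 2.00 to 23.6% ± 0.787, and MXD3 from 8.42% ± 0.369 to 3.63% ± 0.330. MXD1 stayed at a low share in these cells, 4.61% ± 1.19 and 5.64% ± 0.947. Seen by single antagonists, the ratio of MYC to MXD1 went from 8.22 ± 0.725 to 3.98 ± 0.0596 in DU-145 cells, and that to MXD4 from 5.71 ± 1.57 to 2.80 ± 0.677 in LNCaP-AI cells. The ratio of MYC to MXD3 rose in both lines, from 12.7 ± 1.66 to 34.7 ± 4.75 and from 17.3 ± 1.97 to 34.0 ± 7.44.

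**Figure D3:**
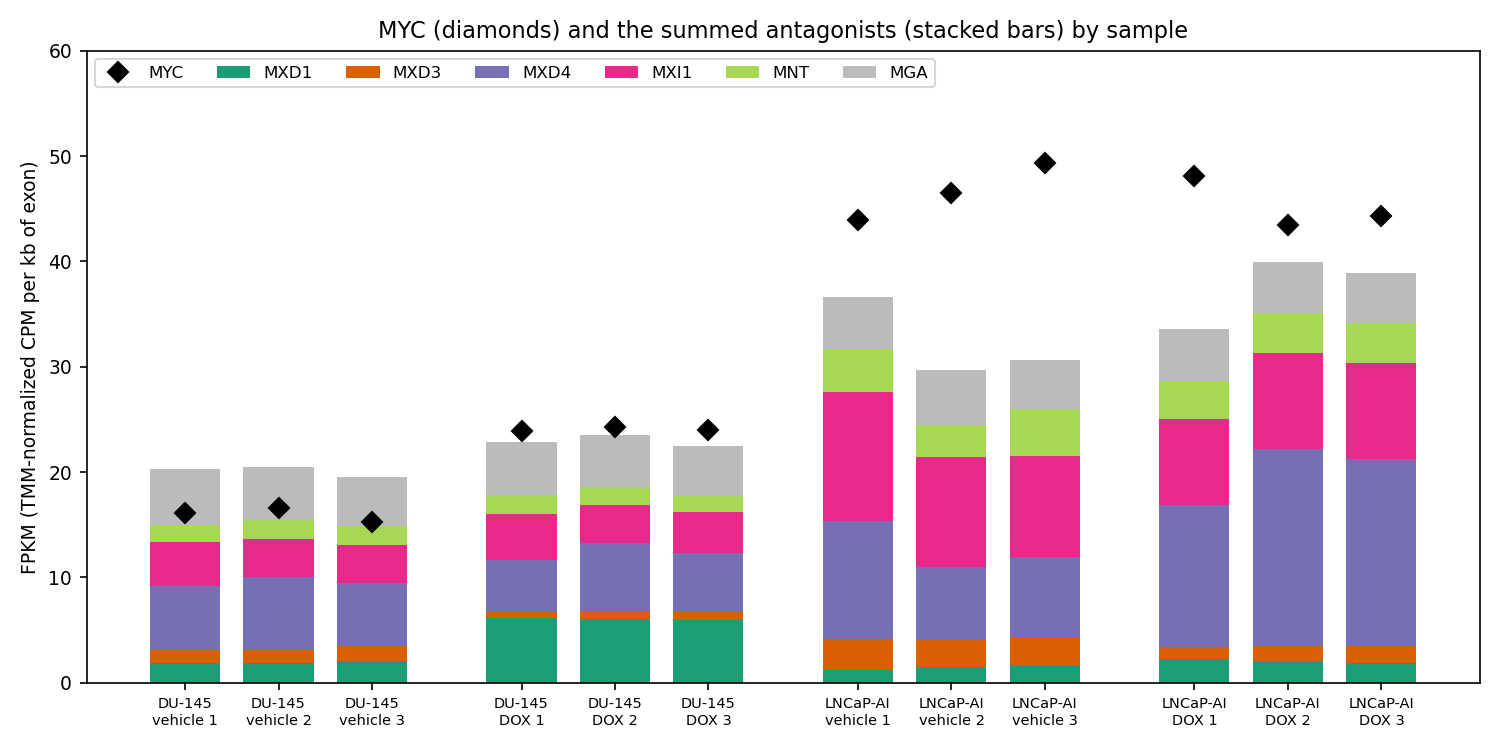
MYC (black diamonds) and the 6 antagonists (stacked bars) in each sample, in FPKM (TMM-scaled CPM per kilobase of exon, linear axis from 0). MYC lies below the top of the stack in the DU-145 vehicle samples and above it in the other 9, MXD1 widens with DOX in DU-145 cells, and MXD4 widens in LNCaP-AI cells.

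Other factors of the network were few. MYCN, the neural MYC paralogue, had 0 counts in all 12 samples, which allows up to 3 counts in each. MLXIPL, the glucose-responsive partner of MLX, was lower with DOX in DU-145 cells (log2 -0.68, standard error 0.265, adjusted p = 0.0383). That call was lost when vehicle 1, vehicle 3, DOX 1 or DOX 2 was left out. MLXIPL was not called in LNCaP-AI cells (-0.83, standard error 0.253, adjusted p = 0.0847), where it was at 6.05 to 7.36 CPM with vehicle and 2.69 to 4.63 with DOX. Its DOX effect was not called different between the lines (-0.12, adjusted p = 0.895). MLXIP was at 33.6 to 37.0 CPM in all DU-145 samples and at 33.0 to 38.0 CPM with vehicle and 45.5 to 51.5 with DOX in LNCaP-AI cells, and its DOX effect differed between the lines (0.50, standard error 0.110, adjusted p = 0.0205).

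Genes whose proteins act with the network were read from lists written from memory with earlier results of these data known. In DU-145 cells, 26.3% of all genes were called higher and 25.3% lower, and in LNCaP-AI cells 7.22% and 5.52%, and the counts of these short lists are to be read against those shares. Among 12 MYC coactivators, 3 were called higher (25%) and 3 lower (25%) in DU-145 cells, close to the shares of all genes (median log2 -0.03, all genes 0.00055). The higher count was 0 to 3 on leaving out a sample (0 without vehicle 3, 1 without vehicle 1, DOX 1 or DOX 3). In LNCaP-AI cells 0 were called by the quasi-likelihood test (6 at an unadjusted p under 0.05, and 3 by DESeq2), and 3 were lower without DOX 1 and 1 without vehicle 2. WDR5, a chromatin scaffold that MYC binds, fell in DU-145 cells (-0.54, adjusted p = 1.24e-06), from 125 to 131 CPM with vehicle to 86.7 to 87.6 with DOX. HCFC1 (-0.28, adjusted p = 0.00421) and BPTF (-0.16, adjusted p = 0.0451) also fell in DU-145 cells. In LNCaP-AI cells WDR5 (-0.63, adjusted p = 0.111), HCFC1 (-0.32, adjusted p = 0.160) and BPTF (-0.27, adjusted p = 0.152) were not called. Their interactions were not called either (adjusted p of 0.944, 0.999987 and 0.765). RUVBL1 (0.21), EP300 (0.21) and RUVBL2 (0.17) rose in DU-145 cells, with adjusted p of 0.0195, 0.0339 and 0.0491. Of 11 SIN3 and NCOR corepressor genes, through which MXD proteins repress, DU-145 cells had 4 higher (36.4%) and 3 lower (27.3%), and LNCaP-AI cells 0 higher and 2 lower (18.2%), with medians of 0.03 and -0.19. The higher count in DU-145 cells was 1 without vehicle 1 or vehicle 3 and 2 without DOX 1 or DOX 3, and the lower count in LNCaP-AI cells was 3 without DOX 1 and 0 or 1 when any other sample was left out. SAP18 rose (0.50, adjusted p = 9.32e-06) and SAP30 fell (-0.51, adjusted p = 0.00199) in DU-145 cells. In LNCaP-AI cells the fallen genes were RBBP4 (-0.42, adjusted p = 0.0253), a histone-binding subunit, and SIN3A (-0.36, adjusted p = 0.0427), the scaffold itself.

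Of 10 subunits of the MGA complex, DU-145 cells had 4 higher (40%) and 3 lower (30%), beside 26.3% and 25.3% of all genes, and 0 were called in LNCaP-AI cells by the quasi-likelihood test (2 at an unadjusted p under 0.05, and 2 by DESeq2, medians 0.03 and -0.07). Without vehicle 1, 1 was higher and 1 lower there, and without DOX 1, 1 was lower. L3MBTL2 (0.72, adjusted p = 2.12e-06), YAF2 (0.47, adjusted p = 0.000750) and E2F6 (0.39, adjusted p = 0.00107) rose in DU-145 cells. The heterochromatin proteins CBX3 (-0.46, adjusted p = 2.07e-05) and CBX1 (-0.39, adjusted p = 7.55e-05) fell in that line, while MGA did not pass the test. In LNCaP-AI cells CBX3 (-0.35, adjusted p = 0.119) and CBX1 (-0.49, adjusted p = 0.0591) were not called. Their interactions were not called either (adjusted p of 0.560 and 0.824). Of 15 genes for MYC protein turnover, DU-145 cells had 5 higher (33.3%) and 6 lower (40%), and LNCaP-AI cells 0 higher and 2 lower (13.3%), beside 7.22% and 5.52% of all genes there (medians -0.02 and -0.10). The higher count in DU-145 cells was 3 without vehicle 2 or DOX 2, and the lower count in LNCaP-AI cells was 4 without DOX 1 and 0 or 1 when any other sample was left out. HUWE1, a ubiquitin ligase (0.58, adjusted p = 1.80e-06), and USP36, a deubiquitinase that stabilizes MYC (0.47, adjusted p = 6.56e-05), both rose in DU-145 cells. AURKA, a kinase known to shield MYC proteins (-0.42, adjusted p = 4.80e-05), and CIP2A, an inhibitor of MYC dephosphorylation (-0.48, adjusted p = 0.000190), fell in DU-145 cells. In LNCaP-AI cells AURKA (-1.07, adjusted p = 0.0824) and CIP2A (-0.99, adjusted p = 0.189) had larger differences that were not called. The interaction was not called for AURKA (adjusted p = 0.304) or CIP2A (adjusted p = 0.590). SET, which inhibits the same phosphatase as CIP2A, was called lower in both lines (-0.39, adjusted p = 0.000231, and -0.47, adjusted p = 0.0365). USP28, another deubiquitinase, was called lower in LNCaP-AI cells (-0.50, adjusted p = 0.0288).

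Targets that MYC is known to activate did not move as a block in DU-145 cells, where MYC mRNA rose. Of 71 tested, 20 were higher (28.2%) and 19 lower (26.8%), near the 26.3% and 25.3% of all genes, and their median log2 fold change was 0.02. Without vehicle 1, 13 were higher. ODC1, the rate-limiting enzyme of polyamine synthesis, was at 388, 415 and 390 CPM with vehicle and at 1089.9, 893 and 994 with DOX (log2 1.33, standard error 0.081, adjusted p = 1.81e-10). CDC25A, a phosphatase that activates cyclin-dependent kinases, was at 41.5 to 42.1 CPM with vehicle and 66.0 to 72.9 with DOX (0.71, adjusted p = 2.30e-07), and RRP12, a ribosome assembly factor, rose by 0.53 (adjusted p = 2.74e-06). AIMP2, a scaffold of the tRNA synthetase complex, fell from 42.3, 43.0 and 40.0 CPM to 14.4, 13.0 and 16.3 (-1.51, standard error 0.097, adjusted p = 3.23e-10). Its exons overlap those of EIF2AK1 on the other strand over 29.1% of their length. LDHA, lactate dehydrogenase A, fell from 1908, 2022 and 1901 CPM to 1039, 939.6 and 962 (-0.98, standard error 0.078, adjusted p = 5.45e-09), and PLK4, a centriole kinase, fell by 0.77 (log2 -0.77, adjusted p = 1.66e-07). The E-box was present at 9 of 17 of the higher genes that had a promoter window, at 11 of 16 of the lower and at 11 of 25 of those not called. Among all genes tested in this line that had a window, these shares were 13.6%, 12.2% and 12%.

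In LNCaP-AI cells, where MYC was not called, 1 MYC-activated gene of 72 was higher (1.39%) and 9 were lower (12.5%), beside 7.22% and 5.52% of all genes, with a median of -0.18 (all genes -0.05). AIMP2 was lower here too (-1.02, standard error 0.117, adjusted p = 0.0123), at 52.1, 54.2 and 42.4 CPM with vehicle and 25.7, 25.0 and 24.2 with DOX. LDHA was at 861, 873 and 695 CPM with vehicle and 515, 428 and 457 with DOX (-0.82, standard error 0.129, adjusted p = 0.0179). MCM5, a subunit of the replicative helicase, was also lower (-0.79, adjusted p = 0.0282), and the higher gene was DUSP2, a nuclear MAP kinase phosphatase (1.36, adjusted p = 0.0164). With the side as a covariate, 3 of the 72 were higher and 25 lower, beside 18.8% and 20.3% of all genes, with a median of -0.17. The count of 9 lower genes was 0 without DOX 2 or DOX 3, 2 to 3 without a vehicle sample and 18 without DOX 1, and that of higher genes was 0 to 3 (3 without vehicle 1, 2 without DOX 1). The DOX effect on ODC1 differed between the lines (-1.45, standard error 0.129, adjusted p = 0.000278), with 458 to 553 CPM with vehicle and 469 to 475 with DOX in LNCaP-AI cells. It also differed for CDC25A (-1.32, standard error 0.171, adjusted p = 0.00172), which was at 55.3 to 61.7 CPM with vehicle and 32.1 to 46.9 with DOX.

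Among genes that MYC is known to repress, 4 of 10 tested were higher (40%) and 3 were lower (30%) in DU-145 cells, beside 26.3% and 25.3% of all genes (median -0.03). In LNCaP-AI cells 4 of 11 were higher (36.4%) and 0 lower, beside 7.22% and 5.52% of all genes (median 0.58). There 1 of 11 was higher without DOX 2 or DOX 3, and with the side as a covariate 6 were higher and 1 lower, beside 18.8% and 20.3% of all genes. CDKN1A, which encodes the cell cycle inhibitor p21 and is also a target of p53, was at 40.5 to 47.2 CPM with vehicle and 175 to 184 with DOX in DU-145 cells (2.07, adjusted p = 1.44e-13). In LNCaP-AI cells it was at 62.5 to 74.1 CPM with vehicle and 698 to 863 with DOX (3.51, standard error 0.133, adjusted p = 0.00233). CDKN2B, the inhibitor p15, was at 0.764 to 1.03 CPM with vehicle and 4.32 to 6.71 with DOX in LNCaP-AI cells (2.60, adjusted p = 0.0123) and at 19.9 to 21.6 and 15.7 to 20.1 CPM in DU-145 cells, and its DOX effect differed between the lines (2.86, adjusted p = 0.000275). TXNIP, a thioredoxin-binding arrestin whose promoter MYC and MLX-containing dimers are known to use, rose from 76.8 to 86.7 CPM with vehicle to 169 to 186 with DOX in LNCaP-AI cells (1.11, adjusted p = 0.0109). It was also called higher in DU-145 cells (0.86, adjusted p = 0.00384), and the interaction was not called (0.28, adjusted p = 0.415). In DU-145 cells NDRG1 (1.29, adjusted p = 5.62e-11) and GADD45A (1.50, adjusted p = 6.45e-10) rose, and NDRG2 (-1.10, adjusted p = 0.000150), ARRDC4 (-0.60, adjusted p = 0.0273) and THBS1 (-0.47, adjusted p = 2.50e-05) fell. Of the 8 genes of this list with a window, 1 held the E-box (12.5%), beside 12% to 13.6% in the classes of all genes tested in DU-145 cells.

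**Figure D4:**
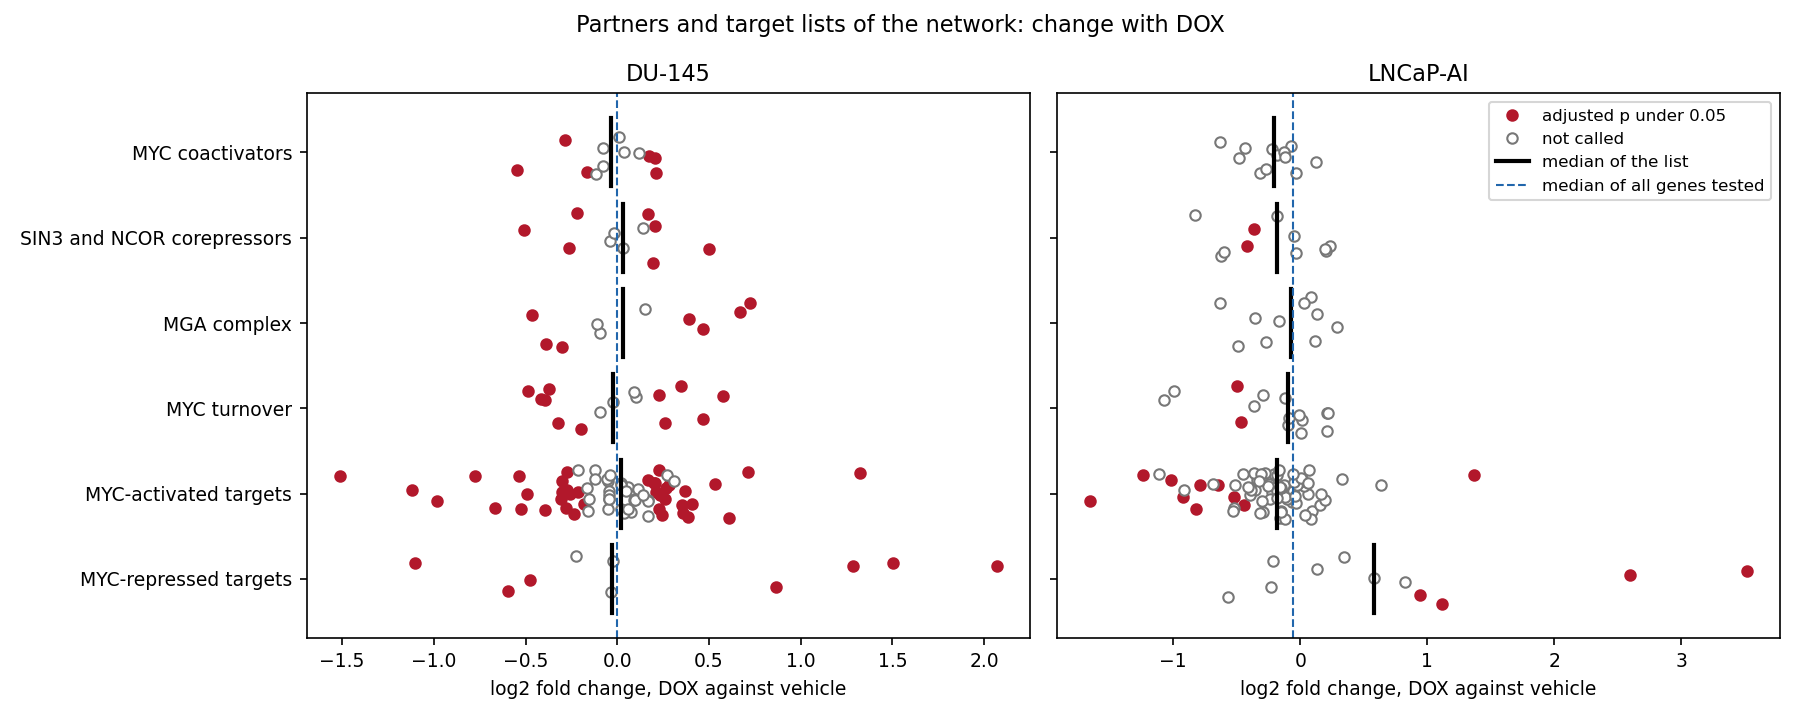
Log2 fold change with DOX of the genes in 6 lists of partners and targets (rows) in each line, on a separate x axis per line. Red points passed an adjusted p under 0.05, open points did not, black bars are list medians and the dashed line is the median of all genes tested. MYC-activated targets lie on both sides of 0 in DU-145 cells, where the median is 0.02, and CDKN1A is the rightmost point of the MYC-repressed row in both lines.

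The genes whose levels were most like those of MYC were found by Pearson correlation of log2 CPM, centred within each line, over the 12 samples, among 12196 genes. The points share the 6 samples of each line and the DOX difference in DU-145 cells, so the values describe likeness and carry no test. NR4A2, an orphan nuclear receptor and immediate early gene, was the closest (r = 0.991), followed by DLST (0.985), RUBCN (0.983), DAGLB (0.983) and MYO10 (0.983). The most opposite were UGDH (-0.982), DCAKD (-0.981), LONRF1 (-0.977), NEBL (-0.977) and IGFBP3 (-0.976). Within the network, over the 12 samples, MXD1 (0.913), MAX (0.744) and MLX (0.730) varied with MYC, and MYCL (-0.972) and, less closely, MXD3 (-0.578) varied against it. The values of MXD4 (-0.270), MGA (-0.185), MXI1 (0.037) and MNT (0.053) were nearer to 0. MAX and MLX did not follow MYC in LNCaP-AI cells. In vehicle 2 and vehicle 3, with MYC at 284 and 301 CPM, MLX was at 76.8 and 76.2 and MAX at 50.5 and 57.5. In DOX 2 and DOX 3, with MYC lower at 265 and 271 CPM, MLX was at 103 and 102 and MAX at 67.5 and 69.8.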

How the data were processed

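RNA was extracted by the authors with Trizol, made into TruSeq Stranded mRNA libraries and aligned with STAR (2.7.0 in the submitters' processing notes, which also name CASAVA 1.8.2, DESeq2 1.24.0 and build GRCh38.p7), and they deposited raw counts per gene in 1 table of 12 samples. The counting tool and its use of strand are not given in the sources used here. Ensembl identifiers, without versions, were matched to symbols (56993 of 58037). Exon lengths came from GENCODE on GRCh38, whose release may differ from the authors'.

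Each line was fitted on its own for DOX against vehicle, with edgeR 4.0.16 in R 4.3.3 (TMM, glmQLFit, glmQLFTest). A gene entered a fit with 10 or more counts in 3 or more of its samples, and a call was an adjusted p (Benjamini-Hochberg) under 0.05. The interaction and the comparison of vehicle groups used all 12 samples. Standard errors are the log2 fold change over the square root of F, and 95% intervals from F's degrees of freedom. CPM and FPKM were scaled by TMM over all 12 samples. Likeness to MYC used log2 CPM with a pseudocount of 0.5, and genes with a mean of at least 1 CPM in each line. The steps were tested on simulated data. The smallest and largest chi-square per degree of freedom between replicates were 2.53 and 78.3, so none was a duplicate. The labels describe RNA from triplicate cultures, and the study states for its experiments in general that repeats used separate samples, so p-values measure the spread between 3 cultures of a line. A value of 3 counts was taken as the floor, and it covers counting error only.

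Alternatives were DESeq2 1.42.0, its size factors, no filter, a filter of 1 CPM, the replicate number as a block, all 12 samples in 1 fit, the side of the LNCaP-AI samples on the leading principal component as a term, another length, and leaving out each sample. The genes of the network and the lists were chosen with earlier results of these data known. Named besides the 10 genes and MUC1 were, from each list in each line, up to 3 called genes per direction with the smallest adjusted p, and the 5 genes most like and the 5 most opposite to MYC. MYCN and MLXIP, the other genes of a list of 3, were named after their values were seen. Some genes of the marker lists are counted in the list totals and are not reported here by name.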

Additional observations from a re-analysis of the deposited data

Results flagged for a closer look

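For 4 of the 10 genes, the log2 fold change with DOX differed between LNCaP-AI and DU-145 cells by the interaction test over all 12 samples. MYC differed by -0.627 (LNCaP-AI minus DU-145), at 0.59 in DU-145 and -0.07 in LNCaP-AI cells. MXD1 differed by -1.11, at 1.63 and 0.49, and was above vehicle in all 3 DOX samples of both lines. MYCL differed by 1.13, at -1.04 and 0.05. MXD4 differed by 1.12, at -0.15 and 0.92, and its adjusted p exceeded the threshold on leaving out 9 of the 12 samples in turn. Part of the LNCaP-AI spread follows the division of vehicle 1, DOX 2 and DOX 3 from the other 3 samples, and its part in these differences was not tested.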

How the results depend on the processing

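In DU-145 cells 6 of the 10 genes were called under each alternative, and all genes called fell from 7033 to 4083 with all 12 samples in 1 fit. In LNCaP-AI cells, where 1 of 10 was called, the count was 4 with DESeq2, 2 with its size factors, 2 without a filter, 5 with all 12 samples in 1 fit, 6 with the side as a covariate and 0 to 3 on leaving out a sample. It was 3 without vehicle 1 or DOX 1 and 0 without DOX 2 or DOX 3. Over all genes, the 2043 calls there became 3517 with DESeq2, 3933 with all 12 samples, 6271 with the side, and 1 to 3538 on leaving out a sample (1 without DOX 2 or DOX 3, 3538 without DOX 1, 1096 without vehicle 2 and 994 without vehicle 3). For the difference between the lines, 1543 genes became 884 without a filter and 737 to 3471 on leaving out a sample (3471 without LNCaP-AI DOX 1, 737 without DOX 3). The change in the ratio of MYC to its antagonists in DU-145 cells was 0.397, 0.481 with the longest transcript as length and 0.328 without MGA. The cause was not tested. None of the 10 genes' fold changes reversed as a call. Over 590 values, 517 kept their sign and their side of the threshold, 33 lost a call and 22 gained one. The other 18 changed sign, for genes not called in the reported fit.

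Samples of the same replicate number did not deviate together (correlations of 0.127, -0.0912 and 0.0763 in DU-145 and -0.940, -0.812 and -0.840 in LNCaP-AI cells), so the numbers are not taken as pairs. With the replicate block, 0 of the 10 genes and 0 genes in all were called in LNCaP-AI cells by edgeR (2 and 2909 at an unadjusted p under 0.05). For the difference between the lines the block left 0 of the 10 genes and 52 genes (4 and 2956 unadjusted), and between vehicle groups 5 of the 10. At these depths MYCL in DU-145 cells rests on fewer than 60 counts a sample.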
